A study of Mus musculus with 19 samples.

Results

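The cartilage matrix genes described here were 10 of the 27998 genes counted in 19 single-cell RNA-seq libraries from a mouse model of trauma-induced heterotopic ossification, in which cartilage and then bone form in injured soft tissue. They were taken by gene symbol, and all 10 were present in every library: Col2a1, Col9a1, Col9a2, Col11a1, Col10a1, Acan, Matn3, Comp, Chad and Prg4. The injury in the labels was a dorsal scald burn of 30% of the body surface combined with cutting of the Achilles tendon, and cells were taken from the tenotomy site of the hind limb. The groups were day 0 (4 libraries, which the study's methods describe as uninjured although their labels name the burn), day 3 (3 libraries), day 7 (4), day 21 (4) and p7N3 (4). The p7N3 mice had the same injury and received p7N3, a peptide that activates CD47, at 10 mg/kg intraperitoneally each day from 3 days before to 3 days after injury; 3 of these libraries are labelled as day 7 and the label of replicate 4 gives no day. No label names a vehicle for the day 7 libraries, although the study's methods describe a saline control. The labels name both C57 mice and LysmCre/Tgfb1fx/fx mice, in which Cre from a myeloid promoter deletes Tgfb1, without saying which library came from which, and the genotype of each library is therefore not stated here. The study's reporting notes say that the single-cell experiments were run in triplicate per time point, to gauge how much mice vary, but the labels tie no library to an animal, so the p-values measure the spread between these libraries, part of which may be technical.

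Cartilage is a tissue of few cells in much matrix. Its fibrils are made of type II collagen (Col2a1) assembled with type XI collagen (Col11a1) and carry type IX collagen (Col9a1, Col9a2) on their surface, while aggrecan (Acan), a large proteoglycan loaded with chondroitin sulfate, holds water between them. Matrilin 3 (Matn3), cartilage oligomeric matrix protein (Comp) and chondroadherin (Chad) are smaller adaptor proteins that bind collagens or cells; Comp is also abundant in tendon. Type X collagen (Col10a1) is made by hypertrophic chondrocytes, which precede bone in endochondral ossification, and lubricin (Prg4) is the surface lubricant made by synovial lining cells and superficial chondrocytes.

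In the GENCODE annotation of GRCm38, Col2a1 lies at chr15:97975602-98004695 on the minus strand, Col9a1 at chr1:24177610-24252684, Col9a2 at chr4:121039385-121055322, Col11a1 at chr3:114030540-114220718 and Col10a1 at chr10:34389981-34397085. Acan lies at chr7:79053483-79115099, Matn3 at chr12:8947929-8972028, Comp at chr8:70373558-70382066, Chad at chr11:94565047-94569127 and Prg4 at chr1:150449412-150466165, the last on the minus strand. Col10a1, Prg4 and Chad overlap Nt5dc1, Tpr and Acsf2 on the opposite strand, and the sources used here do not state how strand was used in counting, so their reads could be shared with these genes. RefSeq promoter sequences of GRCm38.p6 matched 7 of the 10 genes, with Col2a1, Comp and Prg4 absent from that table. The 250 bases before the start are shown for 3 of them. The start is that of the RefSeq entry, which for Acan lies upstream of the GENCODE start given above. Acan and Col11a1 are shown because Col11a1 was the gene whose level was most like that of Acan across cell clusters, and Chad because it moved the opposite way after injury. Capitals mark matches on either strand to a TATA box (TATAAA), a GC box (GGGCGG), a SOX core (ACAAAG or ACAATG) or an E-box (CANNTG), and adjacent or overlapping matches run together.
Acan chr7:79052976-79053225, plus strand: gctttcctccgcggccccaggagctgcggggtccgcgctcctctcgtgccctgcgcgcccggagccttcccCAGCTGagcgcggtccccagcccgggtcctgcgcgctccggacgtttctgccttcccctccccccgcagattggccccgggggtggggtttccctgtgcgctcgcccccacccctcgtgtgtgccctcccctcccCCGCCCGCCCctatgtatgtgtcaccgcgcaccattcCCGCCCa
Col11a1 chr3:114030290-114030539, plus strand: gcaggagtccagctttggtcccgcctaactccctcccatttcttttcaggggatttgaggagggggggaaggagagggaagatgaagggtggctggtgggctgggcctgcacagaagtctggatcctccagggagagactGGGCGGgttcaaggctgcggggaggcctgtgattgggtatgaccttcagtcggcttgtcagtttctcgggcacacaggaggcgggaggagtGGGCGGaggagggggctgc
Chad chr11:94564797-94565046, plus strand: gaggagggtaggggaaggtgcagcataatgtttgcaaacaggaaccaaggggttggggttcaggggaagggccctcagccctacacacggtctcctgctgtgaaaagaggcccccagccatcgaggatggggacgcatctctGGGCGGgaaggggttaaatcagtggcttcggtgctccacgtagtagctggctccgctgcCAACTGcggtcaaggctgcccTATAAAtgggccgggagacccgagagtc
The Acan sequence was 74.4% G and C with 26 CpG dinucleotides, against medians of 52.4% and 6 over the 32851 promoters of the table. It held 3 GC boxes and 1 E-box and no TATA box. The Col11a1 sequence held 2 GC boxes and none of the other motifs, at 62.4% G and C with 7 CpG. The Chad sequence was the only one of these 3 with a TATA box, whose first base lay 28 bases before the start, and it also held 1 GC box and 1 E-box. A TATA box was held by 12.37% of all promoters of the table in the same window, a GC box by 32.74%, a SOX core by 25.24% and an E-box by 66.22%. None of the 3 held a SOX core, which says only that these letters were not in this window.

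The libraries differed in depth. After filtering, 39541 cells remained, with 571 to 1111 cells and 3019467 to 5383855 unique molecular identifiers (UMIs, each counting 1 captured transcript) per library at day 0 and 907 to 3668 cells per library in the other groups. The median stromal-like cell carried 5176.5 UMIs at day 0, 35749 at day 3, 13120.5 at day 7 and 12130.5 at day 21. No pair of libraries shared more than 22 cell barcodes, where 14.44 were expected by chance for that pair, and no pair of replicates differed by as little as counting noise (lowest chi-square per degree of freedom 5.578). The replicate 4 libraries of day 0, day 7, day 21 and p7N3 carry labels written differently from the rest.

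Cells were clustered without the 10 genes and their relatives among the variable genes, and clusters were named from markers that include none of the 10. This gave 11961 stromal-like cells, 2611 tenocyte-like cells, 148 chondrocyte-like cells and 155 cells like synovial lining fibroblasts. All 15 stromal markers were detected in stromal-like cells in every group, and the tenocyte markers summed to 27627 to 53587 counts per 1000000 UMIs (CPM) in tenocyte-like cells against 7734 to 25765 in stromal-like cells. The tenocyte list shares Col1a1 with the stromal list, so these sums are not of tendon genes alone. The same markers named the clusters, so the sums describe the classes. In chondrocyte-like cells at day 21 all 10 measured chondrocyte markers were detected and summed to 6982 to 10766 CPM, against 69.4 to 81.2 CPM in stromal-like cells. At day 7, 59 of the 76 chondrocyte-like cells came from replicate 2, where 8 of the 10 markers were detected (Matn1 and Wif1 at 0) and summed to 1461 CPM.

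Each gene had its own distribution over these classes. Chondrocyte-like cells, 148 of 39541, held 91.2% of the 40553 Col2a1 UMIs, 71.4% of the Col9a1 UMIs and 63.6% of the Col9a2 UMIs. Acan, Col11a1 and Comp were spread differently: tenocyte-like cells held 53.1%, 53.6% and 50.3% of their UMIs, stromal-like cells 35.3%, 34.7% and 34.7%, and chondrocyte-like cells 7.02%, 9.14% and 11.8%. Matn3 was divided between chondrocyte-like cells (44.0%), tenocyte-like cells (33.9%) and stromal-like cells (20.02%), and Chad lay mainly in tenocyte-like cells (64.8%). Prg4, with 171094 UMIs, was split between cells like synovial lining fibroblasts (47.4%) and stromal-like cells (44.5%), with 0.04% in chondrocyte-like cells. Col10a1 was close to absent, with 57 UMIs in 23 cells of all libraries. These shares depend on how many cells of each class were captured and describe the pooled libraries without a test.

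**Figure D1:**
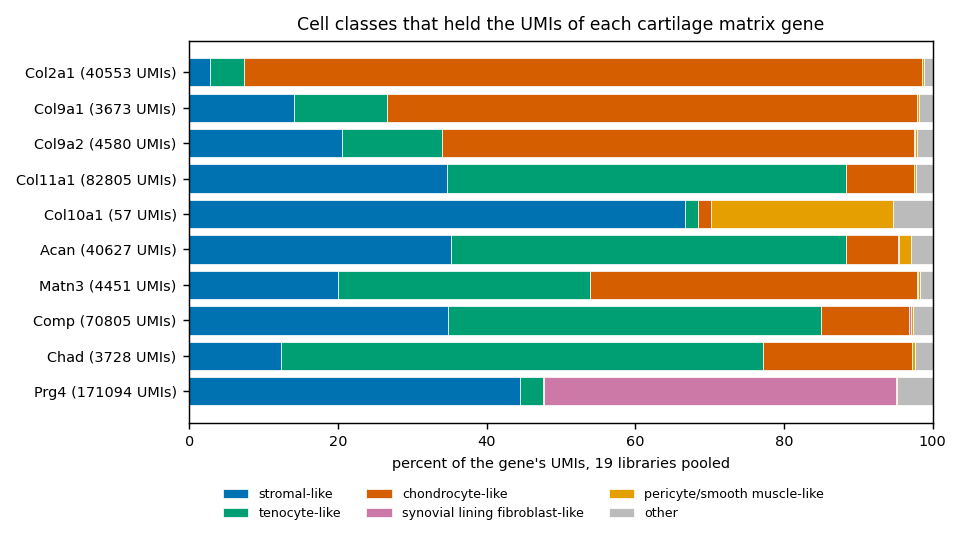
Share of each gene's UMIs held by each class of cells, in percent, with all 19 libraries pooled; each bar adds to 100 and the number beside the gene is its total of UMIs. Col2a1 lies almost wholly in the chondrocyte-like segment (91.2%), Acan, Col11a1 and Comp mostly in the tenocyte-like and stromal-like segments, and Prg4 in the synovial and stromal-like segments.

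Chondrocyte-like cells carried most of these genes together, at levels higher in every day 21 library than in the 1 day 7 library with at least 10 such cells for all but Col10a1 and Prg4. Libraries with at least 10 such cells numbered 1 at day 7 and 3 at day 21, so no test was made, and the 95% intervals given here cover counting error only. Col2a1 measured 808 CPM in the 59 cells of day 7 replicate 2, and 4569, 32812, 38389 and 28962 CPM in the 9, 11, 15 and 30 cells of the day 21 libraries. Over pooled cells this was 684 CPM (639 to 732) in 76 cells at day 7 and 28509 CPM in 65 cells at day 21. The collagens that accompany it followed the same order. In day 7 replicate 2 Col9a1 measured 174, Col9a2 137 and Col11a1 1627 CPM, and in the 4 day 21 libraries their lowest values were 853, 945 and 3000 CPM. Acan measured 716 CPM in day 7 replicate 2 and 1277, 1097, 1226 and 2044 CPM at day 21. The adaptors followed, with Comp at 1019 CPM and then 4447 to 7268 CPM, and Matn3 at 232 CPM and then 883 to 1773 CPM. Chad was represented by a single UMI in the 76 cells at day 7, in replicate 2 (0.998 CPM there), and measured 212, 412, 1099 and 295 CPM at day 21. Prg4 was low and overlapped between the days, at 209, 13.0, 10.1 and 12.4 CPM at day 7 and 40.1, 52.4, 56.4 and 12.0 CPM at day 21. Col10a1 had 1 UMI in all 148 cells, and none in the 65 cells of day 21.

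Cell by cell, the median chondrocyte-like cell had UMIs of 6 of the 10 genes at day 7 and 8 of the 10 at day 21, with similar medians of 16559.5 and 18039 UMIs per cell. At day 21 all 65 cells had 5 or more of the genes, and at day 7 this held for 54 of 76 cells (71.1%). Among the 113 cells of the class with a Col2a1 UMI, Acan and Col11a1 were detected in 100%, Comp in 99.1%, Col9a1 in 90.3%, Col9a2 in 87.6% and Matn3 in 79.6%. Prg4 was found in 20.4% of them. Chad was found in 36.3%. In the cells of the class without a Col2a1 UMI, Col11a1 was detected in 80%, Comp in 62.9% and Acan in 54.3%. Among those cells Col9a2 was found in 31.4%, Col9a1 and Matn3 in 25.7% each, Prg4 in 17.1% and Chad in 0%. All 65 cells of day 21 had a Col2a1 UMI, against 44 of 76 at day 7, so this contrast is also one of day. Of all cells of the class, 38 of the 65 of day 21 had a Chad UMI and 1 of the 76 of day 7. Since 59 of those 76 cells came from replicate 2, this describes pooled cells, and an effect of day was not tested. Outside these groups the class was nearly empty: 1 cell at day 3, which carried 733 Col2a1 UMIs, and 6 cells in the p7N3 libraries, where 394 of 434 Col2a1 UMIs came from 1 cell of replicate 3.

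In stromal-like cells the cartilage matrix genes fell into several patterns over time. Against day 0, edgeR's quasi-likelihood test on UMIs summed per library called 4 of 5 testable genes at day 3 (3 higher, 1 lower), 6 of 9 at day 7 (5 higher, 1 lower) and 4 of 5 at day 21 (3 higher, 1 lower), at an adjusted p under 0.05. The share of all tested genes called was 66.5% (33.5% higher, 33% lower), 54.2% (27.7% higher, 26.5% lower) and 34.6% (17.2% higher, 17.4% lower) in the same comparisons, and between day 7 and day 21 5 of 9 members were called (3 higher, 2 lower), against 36.6% of all genes (18.9% higher, 17.7% lower). The libraries of the groups did not overlap for 3 of 5, 6 of 9 and 4 of 5 members against day 0 and for 3 of 9 between day 7 and day 21, against 64.9%, 49.7%, 33.9% and 35% of all genes. Untested genes had too few UMIs to pass the filter on low counts. The counts of higher genes include Acan in each comparison with day 0 and Col9a1 at day 7. Both had no UMI in the day 0 libraries, passed the filter through the later libraries alone and could only be called higher. The cells behind each group also differed: at day 0 most stromal-like cells lay in clusters led by Myoc and Inmt (742 of 1188) and by Pcolce2 and Smpd3 (359), at day 3 nearly all lay in a cluster led by Cxcl14 and Lcn2 (746 of 766), at day 7 no cluster held more than 779 of 4528, and at day 21 a cluster led by Sfrp4 and Eln held 1095 of 1826. A change of the class cannot be told apart here from a change in which cells made it up. The 3 comparisons share the day 0 libraries, and the comparisons with day 7 share the day 7 libraries.

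Col11a1, which in cartilage regulates the width of type II fibrils, had risen by day 3 in this class and stayed high. It measured 5.45, 13.5, 9.11 and 9.19 CPM in the day 0 libraries, 23.2, 27.7 and 26.0 CPM at day 3, and 181, 235, 188 and 153 CPM at day 7. The day 21 libraries measured 170, 264, 203 and 260 CPM. Every later library lay above every day 0 library, and the day 7 and day 21 ranges overlapped. Relative to day 0, Col11a1 rose by 1.71 ± 0.21 (log2 fold change ± SE) at day 3 (edgeR, adjusted p = 1.22e-05), 4.49 ± 0.21 at day 7 (edgeR, adjusted p = 1.31e-08) and 4.74 ± 0.23 at day 21 (edgeR, adjusted p = 1.33e-07). Between day 7 and day 21 the difference was 0.27 (95% interval -0.09 to 0.64; edgeR, adjusted p = 0.214). The day 3 direction belongs to this class of cells. With tenocyte-like and chondrocyte-like cells added, nearly none of which were named at day 3, Col11a1 fell by 0.70 on the log2 scale from day 0 to day 3 (edgeR, adjusted p = 0.0208). The share of stromal-like cells with a Col11a1 UMI was 2.95% ± 0.836 (SD, n = 4) at day 0 and 57.0% ± 10.1 (n = 4) at day 7. With every cell thinned to 2000 UMIs, which left out 127 of 1188 day 0 cells and none of the later ones, these shares were 1.38% and 23.2%.

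The type IX chains stayed low in this class. Col9a1 had no UMI in the 4 day 0 libraries and measured 3.80, 6.52, 3.52 and 1.75 CPM at day 7. Against a floor of 3 UMIs over the day 0 group (0.471 CPM) it was at least 8.28-fold higher at day 7 (edgeR, adjusted p = 0.0039). Col9a2 measured 0.454, 4.50, 1.07 and 0.707 CPM at day 0 and 8.91, 10.6, 7.09 and 4.80 CPM at day 7, without overlap. It rose by 2.64 ± 0.54 on the log2 scale (edgeR, adjusted p = 0.0011). At day 21 it measured 1.76, 5.05, 3.47 and 4.63 CPM, and the fall from day 7, by 1.06 ± 0.33, passed the test (edgeR, adjusted p = 0.029) with ranges that overlapped. This call was lost without either of day 7 replicates 1 and 2 or either of day 21 replicates 1 and 3, and without a stromal-like cluster led by Krt19, an alternative chosen after seeing the data (adjusted p up to 0.0788 over these). With tenocyte-like and chondrocyte-like cells added the Col9a2 change turned to 2.77 (edgeR, adjusted p = 0.0038).

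Col2a1, the main fibril collagen of cartilage, was scarce in stromal-like cells until day 21. It measured at most 1.41 CPM at day 0 and 2.41 CPM at day 3, and 2.07, 11.9, 2.10 and 0.982 CPM at day 7. In the day 21 libraries Col2a1 measured 2.39, 78.6, 26.3 and 32.1 CPM, so that 3 of the 4 libraries stood above all of day 7 and replicate 1 lay within the day 7 range. The rise from day 7 to day 21 was 3.00 ± 0.88 on the log2 scale (edgeR, adjusted p = 0.023), and it did not pass without day 7 replicate 3, without day 7 replicate 4, without day 21 replicate 2 or on replicates 1 to 3 alone (adjusted p up to 0.0793). Macrophage-like cells of the same day 21 libraries, which should lack the gene, measured 2.08, 33.1, 20.3 and 16.0 CPM, and endothelial-like cells 0.495, 53.1, 28.1 and 24.9 CPM. The stromal level was thus 1.15 to 2.37 times the macrophage level in the same library, and 4 stromal-like cells of day 21 held at least 10 Col2a1 UMIs each. The part of free RNA in these values was not tested. Col10a1 had 14 UMIs in 3 stromal-like cells at day 7, all in replicate 1, and 24 UMIs in 4 cells of the p7N3 libraries, with none at day 0, day 3 or day 21. For day 21 a floor of 3 UMIs allows up to 0.119 CPM. Over all groups, 29 Col10a1 UMIs lay in the stromal-like cluster of 208 cells led by Sfrp5 and Krt19, in 0.962% of its cells.

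Acan, the water-holding proteoglycan, was not detected in any of the 1188 stromal-like cells of day 0, which allows up to 0.310% of cells with a UMI (upper exact 95% bound). All classes together held 2 Acan UMIs at day 0. It measured 13.9, 24.7 and 10.4 CPM at day 3, 84.7, 121, 111 and 66.3 CPM at day 7, and 62.9, 110, 69.2 and 124 CPM at day 21. All 11 later libraries lay above day 0, day 3 lay below the rest, and day 7 and day 21 overlapped. Against the floor of the day 0 group the mean level was at least 34.7-fold higher at day 3 (edgeR, adjusted p = 4.60e-05), at least 203-fold higher at day 7 (edgeR, adjusted p = 4.68e-07) and at least 195-fold higher at day 21 (edgeR, adjusted p = 1.15e-05). Day 21 differed from day 7 by -0.03 on the log2 scale (95% interval -0.57 to 0.51; edgeR, adjusted p = 0.947). A UMI of Acan was found in 15.7% ± 4.57 (SD, n = 3) of stromal-like cells at day 3, 29.6% ± 4.65 (n = 4) at day 7 and 22.3% ± 7.20 (n = 4) at day 21, or 1.72%, 10.3% and 6.63% at 2000 UMIs per cell. The stromal level was 13.7 to 62.5 times the macrophage level of the same library at day 7 and 7.08 to 13.3 times at day 21.

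The adaptor proteins did not move together. Matn3, which links collagen fibrils to other matrix proteins, had UMIs in 1 of 4 day 0 libraries (2.12 CPM) and measured 3.66, 8.30, 5.39 and 3.38 CPM at day 7, above every day 0 library. It rose by 3.45 ± 0.83 on the log2 scale (edgeR, adjusted p = 0.0035), a call lost with tenocyte-like and chondrocyte-like cells added (adjusted p = 0.245). At day 21 it measured 2.90, 18.95, 15.9 and 12.5 CPM, and the difference from day 7 of 1.23 did not pass (95% interval 0.20 to 2.26; edgeR, adjusted p = 0.060), although it passed in 6 of 24 alternative settings.

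Comp, the pentameric protein of tendon and cartilage, was already present before injury, at 110, 128, 101 and 79.9 CPM at day 0. It measured 50.2, 164 and 32.9 CPM at day 3 and 129, 92.7, 140 and 63.0 CPM at day 7, ranges that include the day 0 level. The differences from day 0 were -0.18 (95% interval -1.09 to 0.72; edgeR, adjusted p = 0.719) and 0.08 (95% interval -0.40 to 0.55; edgeR, adjusted p = 0.789). The day 3 result rests on replicate 2: without it Comp fell by 1.17 (edgeR, adjusted p = 8.78e-05). By day 21 Comp measured 267, 458, 332 and 272 CPM, above every earlier library. The rise was 1.73 ± 0.18 from day 0 (edgeR, adjusted p = 2.16e-05) and 1.67 ± 0.25 from day 7 (edgeR, adjusted p = 0.0010) on the log2 scale. Comp thus rose late in this class, where Acan and Col11a1 had risen by day 3.

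Chad, a leucine-rich repeat protein that binds collagen and integrins, went down first. It measured 14.1, 2.25, 14.5 and 8.48 CPM at day 0, 0.221, 2.93 and 0 CPM at day 3, and 0.414, 0, 0.284 and 0.109 CPM at day 7. It fell by 3.00 ± 0.72 at day 3 (edgeR, adjusted p = 0.0025) and by 5.66 ± 0.59 at day 7 (edgeR, adjusted p = 5.07e-06) on the log2 scale. At day 21 it measured 6.42, 51.0, 5.50 and 3.92 CPM, all above day 7, a rise of 6.29 ± 1.08 (edgeR, adjusted p = 0.0018), and the difference from day 0 was 0.51 (95% interval -1.34 to 2.37; edgeR, adjusted p = 0.685). These were few molecules in few cells: 72 UMIs at day 0 in 22 cells, 13 at day 7 in 8 cells and 311 at day 21 in 59 cells, of which 202 UMIs came from replicate 2. In day 21 replicate 3 macrophage-like cells measured 5.70 CPM of Chad, at the stromal level of that library. At day 0 the stromal level lay above the macrophage level in 3 of 4 libraries. Where macrophage-like cells held a Chad UMI at day 0, the stromal level was 0.651 to 2.74 times theirs, which rests on 2 macrophage UMIs. The part of free RNA in the Chad values was not tested.

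Prg4 peaked at day 3. It measured 303, 163, 171 and 142 CPM at day 0, 972, 1199 and 938 CPM at day 3, and 176, 264, 504 and 301 CPM at day 7. The day 21 values were 61.5, 61.9, 36.8 and 89.1 CPM. The day 3 libraries stood above all others and the day 21 libraries below all others, while day 0 and day 7 overlapped. Prg4 rose by 2.53 ± 0.21 at day 3 (edgeR, adjusted p = 3.98e-07), differed by 0.70 at day 7 (95% interval 0.07 to 1.34; edgeR, adjusted p = 0.057) and fell by 1.59 ± 0.26 at day 21 (edgeR, adjusted p = 6.23e-04) against day 0. From day 7 to day 21 it fell by 2.27 ± 0.33 (edgeR, adjusted p = 8.04e-04). The day 7 difference from day 0 passed, in the same direction, in 9 of 24 alternative settings, among them DESeq2, RLE size factors and leaving out replicate 1 of either day (lowest adjusted p = 0.0012).

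Prg4 also marks the synovial lining, so the values of those cells are given beside the stromal ones. The clustering of all cells named a cluster of 890 cells synovial lining fibroblast, on 3 of the 6 markers. It was led by Prg4 and Bglap2, with Cxcl14, Wisp2 and Lcn2 among its leading genes. These genes also led the cluster of nearly all day 3 stromal-like cells, which the clustering within mesenchymal cells named stromal. The split of stromal-like from synovial cells at day 3 thus rests on that later clustering. At day 3, 59 cells like synovial lining fibroblasts held 58.4% of all Prg4 UMIs at 29158, 31089 and 57207 CPM, and 766 stromal-like cells held 34.2%. Those 3 synovial levels came from 15, 42 and 2 cells. A UMI of Prg4 was found in 51.9%, 86.2% and 44.5% of macrophage-like cells of the day 3 libraries, at 70.1, 197 and 53.2 CPM, and in 97.1%, 99.4% and 91.6% of stromal-like cells, with median depths of 9491.5 to 10052.5 and 33970 to 41366 UMIs per cell. The stromal CPM was 13.9, 6.09 and 17.6 times the macrophage CPM in these libraries. At 2000 UMIs per cell, 56.2% of stromal-like cells had a Prg4 UMI at day 3, against 18.4% at day 0, 11.1% at day 7 and 6.53% at day 21. The 6 synovial lining markers other than Prg4 summed to 309 to 406 CPM in stromal-like cells at day 3 and 177 to 253 CPM at day 0, and the macrophage markers to 1549 to 1725 CPM and 114 to 187 CPM; their part in the Prg4 result was not tested. With the synovial cells counted as stromal, an alternative chosen after seeing the data, the day 21 difference from day 0 turned to 0.92 (edgeR, adjusted p = 0.432), since 2 cells of day 21 replicate 3 held all 4174 synovial Prg4 UMIs of that day, and the fall from day 7 no longer passed (edgeR, adjusted p = 0.846).

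**Figure D2:**
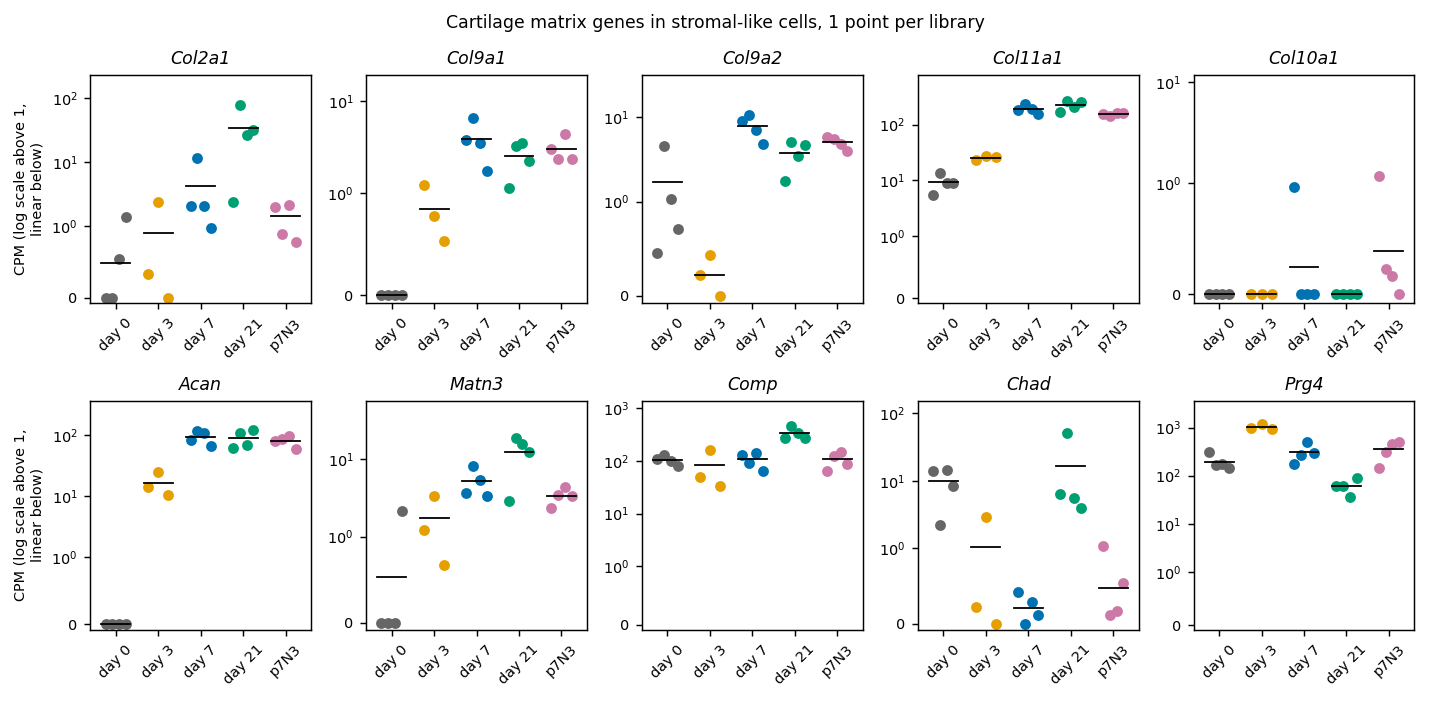
Level of each gene in stromal-like cells, in CPM (log scale above 1 and linear below), with 1 point per library by group and a bar at the group mean. Col11a1 and Acan stand higher at day 7 and day 21 than at day 0 (Acan at 0 in all 4 day 0 libraries), Prg4 is highest at day 3 (938 to 1199 CPM), Comp is highest at day 21 (267 to 458 CPM), and Chad is lowest at day 7.

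Tenocyte-like cells, marked by Scx, Tnmd and related tendon genes, gave the second view. They numbered 48 at day 0 (9, 9, 19 and 11 per library), 0 at day 3, 1116 at day 7, 1026 at day 21 and 421 in the p7N3 libraries. Days were not aligned before clustering, and the clusters largely followed day. Whether the 0 at day 3 reflects the tissue or the clustering was not tested. The tests against day 0 used only the replicates 3 and 4 that held at least 10 cells. Tendon markers in these cells were lower in CPM after injury than at day 0. Over pooled cells at day 0, day 7 and day 21, Scx measured 785, 340 and 263 CPM and Tnmd 3960, 928 and 1896 CPM. Mkx measured 122, 12.2 and 21.0 CPM, Fmod 7563, 787 and 2256 CPM, and Thbs4 7999, 1202 and 3114 CPM. At day 7 against day 0 the edgeR test called 5 of 9 genes (1 higher, 4 lower), where it called 10.4% of all genes tested (6.83% higher, 3.57% lower). For day 21 against day 0 it called 4 of 9 (2 higher, 2 lower), where it called 7.67% of all genes (4.99% higher, 2.68% lower). Between day 7 and day 21, 7 of 9 were called (6 higher, 1 lower), against 32.8% of all genes (16.9% higher, 15.9% lower). Libraries did not overlap for 7, 7 and 5 of the 9 members in these comparisons, and for 53.7%, 52.2% and 30.2% of all genes. The median change of all genes against day 0 was 0.28 at day 7 and 0.26 at day 21 on the log2 scale, so a difference of that size is the level of the average gene in those comparisons. Col10a1 had too few UMIs to test. Acan, counted as higher at day 7 and day 21 against day 0, had no UMI in the day 0 libraries tested and could only be called higher.

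Acan was scarcely detected in this class before injury. It had no UMI in 3 of the 4 day 0 libraries and 2 UMIs in the other, replicate 2 (18.4 CPM, 9 cells). It measured 275, 421, 380 and 309 CPM at day 7 and 473, 365, 420 and 596 CPM at day 21, with every later library above every day 0 library. Against the floor of the 2 day 0 libraries tested (16.4 CPM) it was at least 21.1-fold higher at day 7 (edgeR, adjusted p = 1.93e-05) and at least 28.3-fold higher at day 21 (edgeR, adjusted p = 9.60e-05). From day 7 to day 21 it rose by 0.48 ± 0.16 (edgeR, adjusted p = 0.038) with overlapping ranges, a call that was lost in 8 of 22 alternative settings, among them leaving out day 7 replicate 1, 3 or 4 or day 21 replicate 1 or 4 (adjusted p up to 0.252). A UMI of Acan was found in 85.6% ± 2.70 (SD, n = 4) of tenocyte-like cells at day 7 and 83.8% ± 8.08 (n = 4) at day 21, or 43.3% and 45.0% at 2000 UMIs per cell.

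Among the collagens, Col11a1 was high in this class throughout. It measured 844, 671, 454 and 769 CPM at day 0, 449, 860, 589 and 590 CPM at day 7, and 1056, 1001, 1008 and 1338 CPM at day 21. Only the day 21 libraries stood apart from both other days. Day 7 differed from day 0 by 0.31 on the log2 scale (95% interval -0.29 to 0.90; edgeR, adjusted p = 0.543), and day 21 was higher by 1.15 ± 0.23 against day 0 (edgeR, adjusted p = 0.0080; 0.0790 without day 0 replicate 3) and by 0.88 ± 0.17 against day 7 (edgeR, adjusted p = 0.0018).

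Col2a1 in tenocyte-like cells measured 162, 64.3, 79.0 and 61.0 CPM at day 0, 2.07, 14.4, 1.87 and 7.36 CPM at day 7 and 39.0, 74.4, 69.3 and 79.0 CPM at day 21. The day 7 libraries lay below both other days without overlap. The rise from day 7 to day 21 was 3.07 ± 0.39 (edgeR, adjusted p = 1.04e-04), while the difference of -2.91 between day 7 and day 0 did not pass (95% interval -5.21 to -0.61; edgeR, adjusted p = 0.113) but passed in 5 of 15 alternative settings. At day 21 the tenocyte level was 2.25 to 18.8 times the macrophage level of the same library. Col9a1 and Col9a2 measured at most 16.7 and 23.1 CPM after injury, and neither passed in any of the 3 comparisons, though each passed between day 7 and day 21 in 2 alternative settings. Over the 48 pooled cells of day 0 Col9a2 measured 31.7 CPM (12 UMIs, in 12.5% of cells) and Col9a1 measured 0. In the day 0 libraries tested, replicates 3 and 4, a Col9a2 UMI was found in a mean of 2.63% of cells.

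Chad and Comp were lowest at day 7. Chad measured 509, 1746, 1747 and 1196 CPM at day 0, 16.6, 0.863, 1.64 and 1.02 CPM at day 7, and 77.0, 91.7, 73.3 and 67.2 CPM at day 21. The 3 days did not overlap. On the log2 scale it fell by 8.88 ± 0.56 from day 0 to day 7 (edgeR, adjusted p = 3.76e-07), lay lower by 3.99 ± 0.17 at day 21 than at day 0 (edgeR, adjusted p = 2.06e-07), and rose by 4.96 ± 0.48 from day 7 to day 21 (edgeR, adjusted p = 1.61e-05).

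Comp followed the same order of days. It measured 1145, 2159, 1915 and 1648 CPM at day 0, 351, 482, 281 and 272 CPM at day 7 and 1020, 708, 543 and 1262 CPM at day 21, with day 7 below both other days. It fell by 2.10 ± 0.22 (edgeR, adjusted p = 3.19e-05) and then rose by 1.41 ± 0.25 (edgeR, adjusted p = 0.0011). At day 21 it differed from day 0 by -0.73 (95% interval -1.35 to -0.11; edgeR, adjusted p = 0.169; passed in 3 of 17 alternative settings). Matn3 measured 0, 18.4, 98.7 and 134 CPM at day 0, 4.15, 16.4, 8.88 and 9.39 CPM at day 7 and 39.6, 40.6, 44.5 and 61.0 CPM at day 21, the day 0 values resting on 23 UMIs. Its fall of 3.11 ± 0.61 to day 7 (edgeR, adjusted p = 0.0040) used the higher 2 of the 4 day 0 libraries, and it was lost without either of them (adjusted p up to 0.122). Its rise to day 21 was 2.14 ± 0.25 (edgeR, adjusted p = 5.13e-05).

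Prg4 in tenocyte-like cells measured 289, 487, 770 and 354 CPM at day 0, 260, 72.6, 153 and 190 CPM at day 7 and 82.1, 43.0, 41.4 and 57.7 CPM at day 21. All day 0 libraries lay above the later ones, and day 7 and day 21 overlapped through day 7 replicate 2. It was lower by 3.05 ± 0.36 at day 21 than at day 0 (edgeR, adjusted p = 2.69e-04; 0.0668 without day 0 replicate 3) and by 1.47 ± 0.33 than at day 7 (edgeR, adjusted p = 0.0046). The difference between day 7 and day 0, -1.54 ± 0.45 (edgeR, adjusted p = 0.044), was lost in 7 of 17 alternative settings, among them leaving out day 0 replicate 3 or 4 or day 7 replicate 3 or 4.

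**Figure D3:**
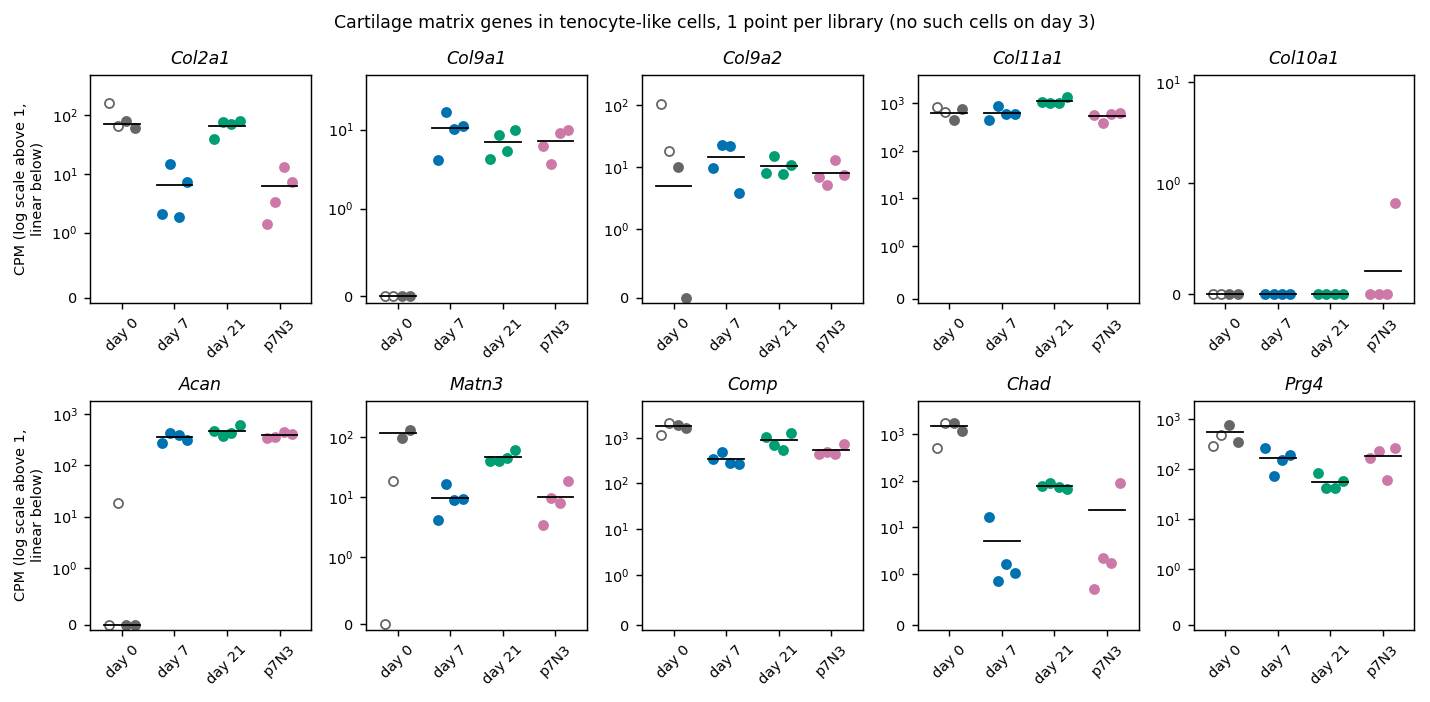
Level of each gene in tenocyte-like cells, in CPM (log scale above 1 and linear below), with 1 point per library, open where the library held under 10 such cells, and a bar at the mean of libraries with at least 10. Chad, Comp, Matn3 and Col2a1 have their lowest bars at day 7, and Acan is at or near 0 at day 0 and at 275 to 596 CPM at day 7 and day 21.

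The days drew on different clusters of tenocyte-like cells. All 48 cells of day 0 lay in a cluster led by Ptx4 and Chad, 1076 of 1116 cells of day 7 lay in a cluster led by C1qtnf3 and Scx, and 934 of 1026 cells of day 21 lay in a cluster led by Cilp2 and Matn4. Chad is among the 10 leading genes of the first cluster, Acan of the second and Comp of the third, so the levels of each in its cluster are a description and not a finding. Over pooled cells, with intervals for counting error only, the cells of the Ptx4-led and Chad-led cluster measured 1345 CPM of Chad at day 0 (95% interval 1230 to 1467), 106 CPM in 24 cells at day 7, 1021 CPM in 56 cells at day 21 and 272 CPM in 32 cells of p7N3. The C1qtnf3-led cells of day 7 measured 0.29 CPM and the Cilp2-led cells of day 21 measured 55.1 CPM, so Chad was detected in the larger cluster at day 21 and barely in that of day 7.

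Acan showed the opposite division. The Ptx4-led and Chad-led cells measured 5.28 CPM at day 0, 153 CPM at day 7, 26.2 CPM at day 21 and 232 CPM in p7N3. The C1qtnf3-led cells of day 7 measured 377 CPM and the Cilp2-led cells of day 21 measured 530 CPM. Acan also differed between groups within the Ptx4-led and Chad-led cluster, with a UMI in 2.08%, 50%, 14.3% and 56.25% of its cells at day 0, day 7, day 21 and in p7N3. Comp within the Ptx4-led and Chad-led cells measured 1751, 665 and 1378 CPM at day 0, day 7 and day 21, and Prg4 measured 489, 648 and 427 CPM, so Prg4 in these cells did not show the drop seen in the class as a whole. Col11a1 was at 674, 741 and 685 CPM in the same cells. Without the C1qtnf3-led cluster, an alternative chosen after seeing the data, 1 of the 7 calls between day 7 and day 21 remained (Prg4). That leaves only 40 tenocyte-like cells at day 7, with at least 10 in 2 libraries. The changes of Acan (1.01), Col2a1 (2.56), Matn3 (3.09) and Col11a1 (0.79) no longer passed but were of similar or larger size on the log2 scale, whereas those of Comp (0.19) and Chad (-0.13) were near 0. The Prg4 difference of day 7 from day 0 was 0.20 without that cluster. Whether cells changed their levels or were replaced by other cells cannot be told apart in these libraries.

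**Figure D4:**
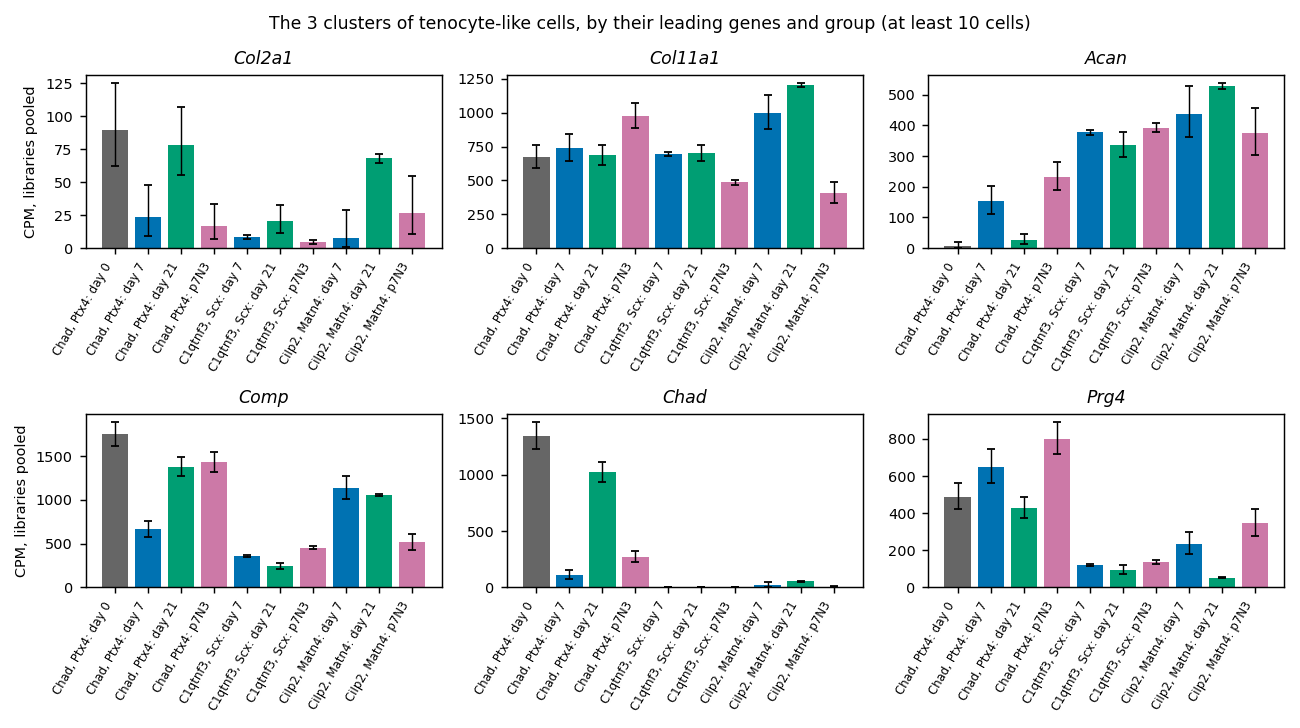
Level of 6 genes in the 3 clusters of tenocyte-like cells, in CPM with the libraries of a group pooled; bars are labelled by 2 leading genes of the cluster and by group, and error bars are 95% intervals for counting error. Chad is high in the cluster led by Chad and Ptx4 at day 0 and day 21 (1345 and 1021 CPM) and near 0 in the C1qtnf3-led cells of day 7, whereas Acan is high in the other 2 clusters.

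A test of class by time asked whether the day 21 against day 7 change differed between tenocyte-like and stromal-like cells. In an edgeR fit with the library as a block, Col11a1 was called, with a change 0.61 ± 0.16 larger in tenocyte-like cells on the log2 scale (95% interval 0.25 to 0.96; adjusted p = 0.030), where 12.6% of all genes were called (6.07% with a larger change in tenocyte-like cells, 6.48% with a smaller one). None of the other members tested passed, although Acan did in 4 and Matn3 and Prg4 each in 2 of 14 alternative settings. Whether the changes from day 0 differ between the classes was not tested. The Col11a1 call was lost in 7 of 14 alternative settings (adjusted p up to 0.198), among them leaving out day 7 replicate 1 or 3 or day 21 replicate 1, 3 or 4.

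The p7N3 comparison asked whether the peptide changed these genes at day 7. The edgeR test called 0 of 8 testable members in stromal-like cells, where it called 0% of 13308 genes, and 0 of 8 in tenocyte-like cells, where it called 2 of 9577 genes (0.0209%). At an unadjusted p under 0.05 there were 2 members in each class, among 1574 and 963 genes, and DESeq2 called no member and 106 and 26 genes. No member had libraries that did not overlap between p7N3 and day 7, against 6.01% of all genes in stromal-like and 5.54% in tenocyte-like cells. In stromal-like cells Acan measured 80.0, 87.3, 96.9 and 59.9 CPM in the p7N3 libraries, within the day 7 range but for replicate 4. The difference was -0.23 on the log2 scale (95% interval -0.67 to 0.20), which leaves room for a level between 0.630 and 1.15 times that of day 7.

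Col11a1 in stromal-like cells measured 157, 142, 161 and 159 CPM in the p7N3 libraries, overlapping day 7 through its lowest library. The difference was -0.29 (95% interval -0.55 to -0.02; edgeR, adjusted p = 0.391). Col9a2 measured 5.74, 5.53, 4.84 and 3.94 CPM, a difference of -0.63 (95% interval -1.14 to -0.13; edgeR, adjusted p = 0.338). Col2a1 measured 2.00, 0.894, 2.13 and 0.776 CPM, a difference of -1.59 (95% interval -3.18 to 0.01; edgeR, adjusted p = 0.423), with day 7 replicate 2 the only library above 3 CPM in either group. The intervals of Comp (-0.63 to 0.65) and Prg4 (-0.64 to 1.04) were wide, since their p7N3 libraries ran from 63.9 to 150 CPM and from 142 to 509 CPM. Chad and Col10a1 were too low to test, with 13 and 14 UMIs at day 7 and 30 and 24 in the p7N3 libraries.

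In tenocyte-like cells Comp measured 453, 487, 452 and 726 CPM in the p7N3 libraries, with replicate 4 far above the rest and all but day 7 replicate 2 below them. The difference was 0.61 (95% interval 0.20 to 1.01; edgeR, adjusted p = 0.299), and of 23 alternative settings it passed in 1, with no filter on low counts (adjusted p = 0.0172). Acan measured 342, 354, 448 and 403 CPM, a difference of 0.16 (95% interval -0.11 to 0.43), and Col11a1 570, 381, 582 and 637 CPM, a difference of -0.20 (95% interval -0.59 to 0.18). Col9a1 differed by -0.80 (95% interval -1.57 to -0.03; edgeR, adjusted p = 0.475). Chad, which was not tested for its low counts, measured 0.697, 2.19 and 1.71 CPM in replicates 1 to 3 and 88.4 CPM in replicate 4. That library held 17 of the 32 p7N3 cells of the Ptx4-led and Chad-led cluster among its 82 tenocyte-like cells. The test of whether the p7N3 difference itself differed between the classes called no member (edgeR, lowest adjusted p = 0.855, for Acan), where 0.0077% of all genes were called. Chondrocyte-like cells could not be compared, since no p7N3 library held more than 2 of them, against 59, 9, 6 and 2 in the day 7 libraries.

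**Figure D5:**
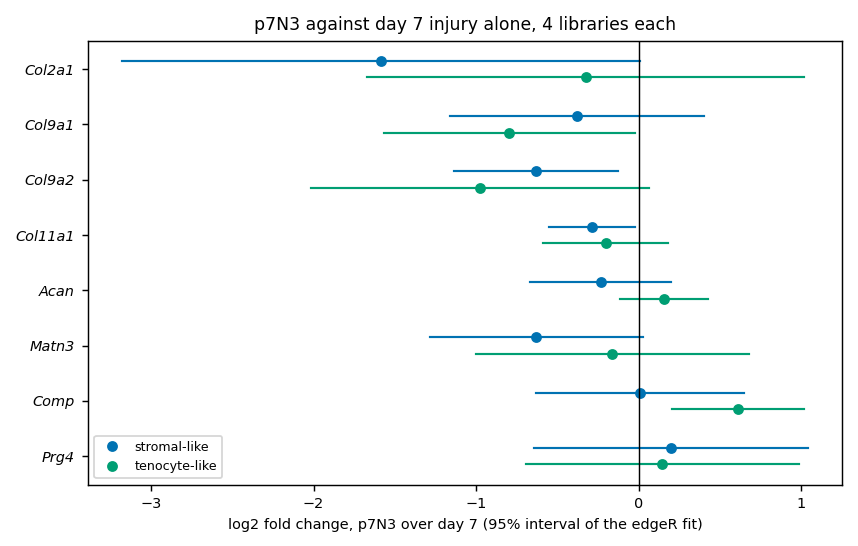
Log2 fold change of p7N3 over day 7 for each gene tested, in stromal-like and tenocyte-like cells, 4 libraries in each group; points are edgeR estimates and lines their 95% intervals. No gene passed an adjusted p of 0.05, the interval of stromal Col2a1 is among the widest (-3.18 to 0.01), and tenocyte Comp lies to the right of 0 (0.20 to 1.01).

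The other genes of cartilage matrix, a list of 11, moved with these genes in part. In stromal-like cells 5 of 9 tested were higher and 1 lower at day 7 against day 0 (median 1.15 on the log2 scale, 0.01 over all genes), where 54.2% of all genes were called (27.7% higher, 26.5% lower). At day 21 against day 0, 6 of 8 were higher and none lower (median 1.16, -0.01 over all genes), where 34.6% were called (17.2% higher, 17.4% lower). Biglycan (Bgn), a small proteoglycan, rose by 2.13 ± 0.12 at day 7 from 917 to 4016 CPM, and epiphycan (Epyc), a proteoglycan of growth cartilage, rose by 5.29 ± 0.47 at day 21 from 0.383 to 19.5 CPM. Prelp, which anchors collagen to basement membrane, fell by 1.81 ± 0.13 at day 7 from 303 to 86.7 CPM and rose by 1.80 ± 0.13 from day 7 to day 21. In tenocyte-like cells it was lower by 3.44 ± 0.22 at day 7 than at day 0 (89.6 against 998 CPM) and higher by 2.40 ± 0.15 at day 21 than at day 7, the order seen for Chad and Comp. Col11a2, the partner chain of Col11a1, was lower by 4.10 ± 0.37 at day 7 than at day 0 in tenocyte-like cells (12.8 against 208 CPM), where Col11a1 itself did not pass. The levels in this paragraph and the next 2 are group means scaled by edgeR's TMM factors, and the adjusted p-values of the changes named here were at most 4.97e-05 in edgeR.

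Of 12 genes for chondroitin sulfate synthesis, which makes the side chains of aggrecan, 10 were tested in stromal-like cells, and at day 7 against day 0 5 were higher and 2 lower (median 0.34), against 27.7% and 26.5% of all genes. Csgalnact1, which starts the chain, rose by 3.44 ± 0.16 at day 3 and 3.19 ± 0.18 at day 7, from 8.53 to 75.6 CPM at the latter, and Chsy1, which extends it, rose by 2.58 ± 0.14 at day 7 from 13.4 to 80.3 CPM. Ugdh, which supplies the sugar precursor, fell by 1.79 ± 0.18 at day 7 (640 to 185 CPM; edgeR, adjusted p = 3.26e-06, the highest of the changes of these 3 genes). Csgalnact1 was also higher in tenocyte-like cells at day 7 against day 0, by 3.12 ± 0.65 (edgeR, adjusted p = 0.0064). Of 10 genes for cartilage matrix breakdown, all tested in stromal-like cells, 3 were higher and 4 lower at day 7 (median -0.41), in the comparison where 27.7% of all genes were higher and 26.5% lower. Mmp13, the collagenase of hypertrophic cartilage, had no UMI in stromal-like cells of day 0 and measured 28.3 to 146 CPM at day 7 (edgeR, adjusted p = 3.78e-04). Mmp13 passed the low-count filter through the day 7 libraries alone and could only be called higher. It is among the 3 breakdown genes counted as higher. Adamts5, an aggrecanase, fell by 1.81 ± 0.21 (377 to 108 CPM; edgeR, adjusted p = 1.44e-05).

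Of 9 regulators of cartilage, 6 could be tested in stromal-like cells at day 7 against day 0, of which 3 were higher and 1 lower (median 1.34), where 54.2% of all genes were called. Runx2, the transcription factor of hypertrophy and bone, rose from 0.248 to 33.7 CPM (log2 fold change 6.70 ± 0.34; edgeR, adjusted p = 2.17e-08), and Sox5, a partner of Sox9 in cartilage, fell by 0.99 ± 0.21 (14.7 to 7.60 CPM; edgeR, adjusted p = 0.0013). From day 7 to day 21 Runx2 fell by 0.85 ± 0.16 in stromal-like cells (edgeR, adjusted p = 0.0027) and fell by 1.54 ± 0.18 in tenocyte-like cells (edgeR, adjusted p = 4.95e-05). In the tenocyte-like cells of that comparison 3 regulators were higher and 2 lower of 8, and 6 other matrix genes were higher and 1 lower of 10, where 32.8% of all genes were called (16.9% higher, 15.9% lower). None of these 4 lists had a gene called in edgeR between p7N3 and day 7, in either class, among 39 genes tested in stromal-like and 31 in tenocyte-like cells.

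Across the 44 cell clusters of all libraries the genes also differed in which genes they resembled most, by Pearson correlation of log2(CPM + 1) over clusters among 13306 genes. This is a description over clusters that share libraries and depth. Col2a1 was most like Mia (0.905), Ucma (0.872) and Hapln1 (0.865), each highest in the chondrocyte-like cluster. Acan was most like Col11a1 (0.914) and Col12a1 (0.910), and Comp most like Clec11a (0.914), 1500015O10Rik (0.902) and Thbs4 (0.871). Chad was most like Cilp2 (0.923) and Col11a2 (0.848). Prg4 had the loosest likeness, to Wisp2 (0.768) and Timp1 (0.702). Acan and Col2a1, the main proteoglycan and the main collagen of cartilage, correlated at 0.605 over the same clusters.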

How the data were processed

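The data were single-cell RNA-seq libraries of digested tenotomy sites, made according to the study's methods with a 10x 3′ kit, aligned to mm10 with Cell Ranger and filtered in Seurat. The submitters' processing notes also name GRCh38, but all 27998 gene IDs in the files are mouse. The authors deposited UMI counts per gene and barcode, with no normalization and no cell annotation. Here the study's stated limits were applied, a minimum of 500 genes per barcode and a maximum of 25% of UMIs from mitochondrial genes, which left 39541 cells. Cells were clustered in scanpy 1.11.5 (2000 variable genes, 52 cartilage genes left out, 30 principal components, 20 neighbours, Leiden resolution 0.8, then again within 16965 mesenchymal cells), and clusters were named from marker lists. Libraries and days were not aligned before clustering, whereas the study aligned its datasets by canonical correlation analysis. Doublets were not removed; removing the 3.9% of cells with the highest Scrublet scores was an alternative.

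UMIs were summed per library and class where a library held at least 10 cells. CPM are UMIs of the gene per 1000000 UMIs of the class in that library. Each pair of groups was tested with edgeR 4.0.16 (R 4.3.3; TMM scaling, low-count filter, quasi-likelihood test, Benjamini-Hochberg adjustment over all genes, threshold 0.05). Alternatives were DESeq2 1.42.0, other scaling, filters and clusterings, a replicate block and leaving out each library. Scripts were tested on simulated data. For tenocyte-like day 7 against day 0 they recovered 16% of 2-fold and 52% of 4-fold changes, so an uncalled gene there may still have changed. For p7N3 against day 7 they recovered 99% and 100% in stromal-like and 92% and 100% in tenocyte-like cells. Recovery for the cartilage genes on their own was not tested, so a cartilage gene left uncalled for p7N3 may still have changed. Intervals and floors (3 UMIs) cover counting error only, and 3′ counts are compared within a gene, not between genes. All 10 cartilage genes were named, and from each of 4 related lists the 2 genes per direction and comparison with the largest log2 fold change among those called whose libraries did not overlap; those printed are some of these. The genes and lists were chosen with earlier results of these data known. Tenocyte-like cells at day 3 and chondrocyte-like cells of p7N3 were too few to test.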

Additional observations from a re-analysis of the deposited data

Results flagged for a closer look

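Of 59 sets of 4 libraries compared within a group, 7 held a library far from the other 3. Chance flags about 1 set in 20 only where values follow a normal distribution. Sparse and skewed UMI values can be flagged more often, so no excess over chance is read from this count. In stromal-like cells Col2a1 measured 11.9 CPM in day 7 replicate 2 (201 UMIs) and 0.982 to 2.10 CPM in the others, and that library also held 59 of the 76 chondrocyte-like cells of day 7. Col10a1 measured 0.966 CPM in stromal-like cells of day 7 replicate 1 (14 UMIs) and 0 in the others, so its flag followed from the rule itself. Chad measured 51.0 CPM in stromal-like cells of day 21 replicate 2 (202 UMIs) against 3.92 to 6.42 CPM. In tenocyte-like cells Col11a1 measured 1338 CPM in day 21 replicate 4 against 1001 to 1056 CPM, and Comp measured 726 CPM in p7N3 replicate 4 against 452 to 487 CPM. Chad measured 16.6 CPM in tenocyte-like cells of day 7 replicate 1 (24 UMIs) against 0.863 to 1.64 CPM; that library held 7 of the 24 Ptx4-led cells of day 7 among 90 tenocyte-like cells. In p7N3 replicate 4, whose label gives no harvest day, Chad measured 88.4 CPM (108 UMIs) against 0.697 to 2.19 CPM, and 17 of its 82 tenocyte-like cells were Ptx4-led. The last is a difference between classes: the day 21 against day 7 change of Col11a1 was larger in tenocyte-like than in stromal-like cells by 0.61 on the log2 scale in edgeR's interaction test (adjusted p = 0.030). What set these libraries apart was not tested.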

How the results depend on the processing

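Of 226 recomputed counts of called genes 202 stayed within 1.5 times the reported count, and of 746 recomputed changes of called genes 701 kept their direction and passed. The 226 include the p7N3 results, with a reported count of 0 where edgeR called at most 2 of all genes tested. A count of 0 that stays 0 there says little about stability. The counts of calls here and in the next paragraph are given without the share of all genes called under the same setting. They show how far a count moved and not whether it exceeded that share. Requiring 10 UMIs in every library, which removes low genes, left 2 calls for stromal-like day 3 and day 7 and tenocyte-like day 7, each against day 0, and 4 for tenocyte-like day 21 against day 7. Stromal-like day 21 against day 0 (4 calls) gave 8 with no filter, 7 in a single fit of all 5 groups, 7 without day 0 replicate 2, and 8 with tenocyte-like and chondrocyte-like cells added; that addition gave 9 for stromal-like day 21 against day 7. It also reversed Col11a1 at day 3 (-0.70) and, at day 21 against day 7, Acan (1.04), Col9a1 (2.95) and Col9a2 (2.77), while adding synovial cells reversed Prg4 at day 21 against day 0 (0.92). Without the C1qtnf3-led cluster, tenocyte-like day 21 against day 7 gave 1 call on 2 day 7 libraries, with Col2a1 (2.56), Matn3 (3.09) and Col11a1 (0.79) of similar or larger size, Comp near 0 (0.19) and Chad reversed (-0.13), and Prg4 reversed at day 7 against day 0 (0.20). The cause was not tested. With no filter tenocyte-like p7N3 gave 2 calls. Leaving out each library gave 4 to 5, 4 to 7 and 4 to 7 calls for stromal-like day 3, day 7 and day 21 against day 0 and 4 to 5 for day 21 against day 7. It gave 3 to 6 and 2 to 6 for tenocyte-like day 7 (3 without day 0 replicate 3 or 4) and day 21 (2 without day 0 replicate 3) against day 0, 6 to 7 for day 21 against day 7 and 0 for p7N3 in both classes. The class by time difference (1 call) gave 0 to 3, namely 0 without day 7 replicate 3 or day 21 replicates 1, 3 or 4 and 3 without day 21 replicate 2; it gave 3 with no filter, 2 at Leiden resolution 2, 3 with the cartilage genes among the variable genes, and 0 with no library block or a replicate block in its place.

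Deviations of same-numbered libraries of 2 groups correlated at -0.11 to 0.27, and those of differently numbered ones reached -0.37 and 0.31. With at most 4 libraries per group this cannot decide whether the numbers pair them, and the main tests took the libraries as unpaired. With the replicate number as a block, stromal-like cells gave 4, 7 and 4 calls at day 3, day 7 and day 21 against day 0, 6 at day 21 against day 7 and 0 for p7N3, and tenocyte-like cells 6, 5, 6 and 0 in the corresponding comparisons. The tenocyte-like comparisons with day 0 could not be fitted on replicates 1 to 3 alone, with at least 20 cells per library, after doublet removal or in C1qtnf3-led cells alone, nor could day 21 against day 7 in the latter, and no unnamed cluster reached 75% Pdgfra-positive cells. Depth limits Col10a1, Chad and the type IX chains in stromal-like cells, which rest on 13 to 520 UMIs at day 7.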

Other observations

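Lubricin was also detected in cells outside the stromal-like and tenocyte-like classes. The 155 cells like synovial lining fibroblasts were led by Prg4, Bglap2 and Pla2g2e. In the day 7 libraries they measured 8192, 18136, 35083 and 10260 CPM of Prg4, in 13, 3, 11 and 8 cells. In day 7 replicate 2, 517 of their 526 Prg4 UMIs came from 1 cell. The 4, 24 and 25 cells of p7N3 replicates 1, 3 and 4 measured 23381, 21937 and 20524 CPM, while p7N3 replicate 2 held no such cell. At day 21 the 2 and 4 such cells of replicates 1 and 4 held no Prg4 UMI. Prg4 is a leading gene of that cluster, so its level there is a description. Of 1273 cells with at least 10 Acan UMIs, 789 were tenocyte-like, 362 stromal-like and 89 chondrocyte-like, and of 133 cells with at least 10 Col2a1 UMIs, 85 were chondrocyte-like, 37 tenocyte-like and 10 stromal-like.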
